A study of Mus musculus and Rattus norvegicus with 26 samples.

Results

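Intronic sequence of 6 genes of GABA signalling was followed through the lists of cytoplasmic intron-sequence retaining transcripts (CIRTs) of rodent neurons and of non-neuronal mouse cells. The genes were Gad1, Gad2, Gabra2, Gabra4, Gabra5 and Gabrb1, and their members in the data were all contigs whose gene symbol was 1 of these 6 names. A contig is a stretch of an intron formed from neighbouring intronic reads, and the reads were counted once per transcript and intron. In all, 88 of 112345 contigs and 6 of the 13695 gene symbols in the 6 lists belonged to this group. No transporter of GABA was among the 6 genes.

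The study asked which introns leave sequence in RNA outside the nucleus, and whether this depends on the cell type. Each condition was deposited as 1 list that pools its libraries, so no list gives a value for a single library. Dendrites and somas were harvested mechanically from cultured hippocampal neurons of embryonic day 18. The mouse neurons were C57BL/6, with 3 dendrite and 3 soma libraries, and the rat neurons were Sprague-Dawley, with 2 dendrite and 3 soma libraries. A dendrite library pooled many dendrites, and a soma library was a single cell that still held its nucleus. The brown adipose tissue (BAT) cells were single interscapular cells of CD-1 mice of embryonic day 17.5, with 6 libraries by the labels. The cardiomyocytes were single cells of embryonic day 14.5 from transgenic C57BL/6 mice with the Fucci probe mAG-hGem under the CMV promoter, sorted for fluorescence and viability, with 9 libraries by the labels. The paper counts fewer BAT cells and fewer cardiomyocytes than the labels name, and which libraries entered these lists is not given in the sources used here. All RNA was amplified by 3 rounds of aRNA, a linear amplification primed with oligo(dT).

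GABA is the main inhibitory transmitter of the mature brain. Gad1 and Gad2 encode GAD67 and GAD65, the enzymes that make GABA from glutamate in inhibitory neurons. The receptor genes encode subunits of the GABA-A receptor, a chloride channel of 5 subunits in which alpha and beta subunits form the binding site for GABA. Gabra2, Gabra4 and Gabra5 encode alpha subunits, and Gabrb1 encodes a beta subunit. Splicing takes place in the nucleus, and the retained stretches studied here are pieces of introns found in RNA that was harvested from dendrites or whole cells.

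The stretches that carry most of the results are shown first, read from the mouse genome NCBIM37 (mm9) in the direction of transcription. The last 300 bases of the Gad1 contig with most reads in the mouse soma list, at chr2:70427128-70427427 on the plus strand, are given with runs of 5 or more A or T in capitals. The bases common to the dendrite and soma contigs in intron 11 of Gad2, at chr2:22525286-22525432 on the plus strand, have the first 2 bases of the intron in capitals. The bases common to dendrites and BAT cells in intron 3 of Gabra2, at chr5:71448842-71449028 on the minus strand, and the last 150 bases of the BAT contig in intron 2 of Gabra4, at chr5:72041499-72041648 on the minus strand, again have runs of 5 or more A or T in capitals, and the latter has none. The bases common to all 4 mouse lists in intron 5 of Gabrb1, at chr5:72439138-72439380 on the plus strand, have the hexamer AATAAA in capitals.
Gad1 intron 10: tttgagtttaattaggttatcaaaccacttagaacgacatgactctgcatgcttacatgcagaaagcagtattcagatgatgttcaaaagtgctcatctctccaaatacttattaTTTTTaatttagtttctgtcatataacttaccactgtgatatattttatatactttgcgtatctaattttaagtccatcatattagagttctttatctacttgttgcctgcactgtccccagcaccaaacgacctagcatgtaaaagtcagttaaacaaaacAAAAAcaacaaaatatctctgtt
Gad2 intron 11: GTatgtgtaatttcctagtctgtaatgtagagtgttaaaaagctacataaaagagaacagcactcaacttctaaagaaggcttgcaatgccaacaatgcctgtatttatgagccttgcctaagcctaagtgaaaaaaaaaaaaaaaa
Gabra2 intron 3: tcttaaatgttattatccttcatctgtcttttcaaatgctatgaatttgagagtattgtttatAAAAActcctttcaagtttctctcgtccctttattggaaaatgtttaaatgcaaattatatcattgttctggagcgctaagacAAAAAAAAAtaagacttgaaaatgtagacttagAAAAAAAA
Gabra4 intron 2: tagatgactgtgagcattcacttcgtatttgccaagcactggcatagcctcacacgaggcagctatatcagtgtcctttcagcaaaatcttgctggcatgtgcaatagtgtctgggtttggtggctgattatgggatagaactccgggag
Gabrb1 intron 5: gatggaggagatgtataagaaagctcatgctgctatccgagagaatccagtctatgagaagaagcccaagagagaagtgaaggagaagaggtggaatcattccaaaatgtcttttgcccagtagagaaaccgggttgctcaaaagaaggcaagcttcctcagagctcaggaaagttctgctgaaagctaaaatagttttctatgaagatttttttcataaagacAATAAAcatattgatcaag

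The lists held between 1007530 reads (rat dendrite) and 17858440 reads (mouse BAT), counted once per intron, which bounds what the shallower lists can show. A gene without a contig is called not listed, since the lists hold only introns that passed the authors' filters. Levels were scaled as reads per 1000000 reads of the same list (RPM), and their 95% intervals are exact Poisson intervals that cover counting error only. No list has replicates, so no difference below was tested against the spread between libraries. The markers of the labelled cells were checked by the same intronic reads. Brown adipocyte genes took 8021 RPM in the BAT list, with Fabp4 and Pparg ahead of the rest. Of these genes 7 of 8 were listed, beside 82.0% of all gene symbols in any mouse list. Cardiomyocyte genes took 26468 RPM in the cardiomyocyte list, led by Ryr2 and Ttn. Of these genes 8 of 10 were listed, beside 49.8% of all mouse symbols, while Nkx2-5 and Gata4 were not listed there. Neuronal genes took 5639 RPM in mouse somas, led by Syt1 and Snap25, with 4 of 6 listed beside 47.3% of all mouse symbols. In mouse dendrites they took 34.3, with 2 of 6 listed beside 69.0%. Rat somas had 2603 RPM of them with 2 of 6 listed, beside 59.4% of the rat symbols. Rat dendrites had 52.6 with 1 of 6, beside 78.5%. In BAT cells the neuronal genes took 609 RPM, where Syt1 and Snap25 had 455 and 154, and Map2 and Nefl were listed nowhere. Mouse dendrites had 780 RPM of cardiomyocyte genes, of which Ryr2 gave 280 on 13 introns, Tbx5 262 and Actn2 139. Brown adipocyte genes had 221 RPM there. Both sums stood above the neuronal genes, with 6 of 10 and 5 of 8 genes listed beside 69.0% of all mouse symbols. The sums were not corrected for the number of introns of a gene. Rat dendrites had 77.4 RPM of cardiomyocyte genes, all of Ryr2, and 94.3 of brown adipocyte genes, all of Ucp1. Glial genes had 206 RPM there, from Mog and Slc1a3. Each of these sums was again above the neuronal genes. They rest on 1 of 10, 1 of 8 and 2 of 12 genes listed, beside 78.5% of the rat symbols. BAT cells had 2779 RPM of cardiomyocyte genes, of which Nkx2-5 gave 1501. Whether other cells gave a part of the sequence in these lists was not tested.

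Mouse somas listed all 6 genes, mouse dendrites 5, rat somas 5, BAT cells 4, cardiomyocytes 3 and rat dendrites 2. Of all gene symbols in any mouse list, 47.3% were in the mouse soma list, 69.0% in the mouse dendrite list, 82.0% in the BAT list and 49.8% in the cardiomyocyte list. For the rat, 59.4% of the symbols were in the soma list and 78.5% in the dendrite list. The rat dendrite list thus held 2 of the 5 genes in either rat list where it held 78.5% of all rat symbols, and the mouse soma list held 6 of 6 where it held 47.3%. Gad2, Gabra2 and Gabrb1 were in all 4 mouse lists, beside 24.6% of all mouse symbols, though Gad2 rested on 2 reads in cardiomyocytes and was lost there with a minimum of 4 reads. With contigs of at most 400 nt in somas, BAT cells and cardiomyocytes, the limit that the study set for whole cells, Gabra4 left the mouse soma and BAT lists, Gabra2 the cardiomyocyte and rat soma lists, and Gabrb1 the rat soma list. Gad2 and Gabrb1 were then the genes in all 4 mouse lists. Since reads are given per intron, an intron with any contig within the limit kept all its reads, and in mouse somas 3708 of the 3938 reads kept lay in introns that also held a longer contig. The receptor gene Gabra4 was not listed in either rat list, and Gad1 was not listed in mouse dendrites, BAT cells or cardiomyocytes.

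**Figure D1:**
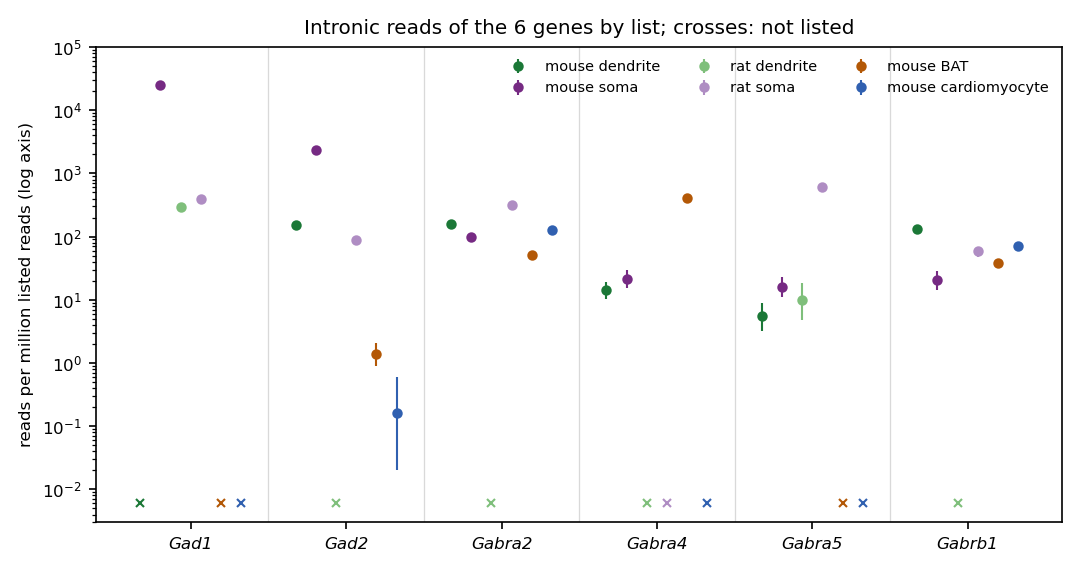
RPM (log axis) of the 6 genes in the 6 lists, with bars for exact 95% Poisson intervals and crosses at the foot of the plot for genes that were not listed. Gad1 in mouse somas stood at 24639 RPM, and Gad2 ran from 2329 in mouse somas to 0.164 in cardiomyocytes.

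Intronic reads of the GABA-synthesising enzymes were concentrated in the mouse somas. Gad1 had 45716 reads in the mouse soma list, 811 in the rat soma list and 299 in the rat dendrite list. On the scaled level these were 24639 (interval 24413 to 24866), 387 (361 to 415) and 297 (264 to 332) RPM. The order was mouse soma, rat soma, rat dendrite, and no neighbouring intervals overlapped. Gad1 ranked 1 of 5895 genes by reads in the mouse soma list and took 2.46% of all its reads.

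A single intron carried this value. Intron 10 of Gad1 had 45674 of the 45716 reads, or 99.9%, and the other 4 listed introns had 18 (intron 15), 10 (intron 4), 10 (intron 7) and 4 reads (intron 11). Intron 10 ranked 1 of 10568 introns of the mouse soma list by reads and also by reads per 1000 nt of contig, of which it had 35406. Its contig, at chr2:70426138-70427427, was 1290 nt long and covered 61.9% of the intron of 2084 nt. It began 392 nt after the upstream exon and ended 402 nt before the downstream exon, so it touched neither. It lies within Gad1, whose transcript spans chr2:70400099-70440071 with 16 introns, and it overlapped no exon of another annotated transcript. The contig matched no other place in the genome at 90% identity over 100 nt or more. It was longer than the limit of 400 nt, under which Gad1 kept 22 reads in mouse somas, or 24.8 RPM, and 6 reads in rat somas, or 9.67 RPM, both below the 297 RPM of rat dendrites, whose contig was longer than the limit too. Since the list pools 3 somas, the number of somas that gave these reads cannot be told.

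In rat somas the Gad1 reads were less concentrated in 1 intron. The rat soma list had 472 reads in intron 15, 173 in intron 10, 160 in intron 11 and 6 in intron 9, so the top intron held 58.2% of the reads. Introns 10, 11 and 15 were thus listed in the somas of both species, by the number each transcript model gives them. The rat dendrite list had 1 Gad1 intron, intron 3 with 299 reads on a contig of 1401 nt (rn4 chr3:52796329-52797729), and this intron was not listed in rat somas. Rat intron lengths were not analysed here.

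Gad2 had contigs in 5 lists. It had 4322 reads in mouse somas, 462 in mouse dendrites, 188 in rat somas, 25 in BAT cells and 2 in cardiomyocytes. The scaled levels were 2329 (2260 to 2400), 150 (136 to 164), 89.8 (77.4 to 104), 1.40 (0.906 to 2.07) and 0.164 (0.0199 to 0.592) RPM, in that order and without overlapping intervals. With the limit of 400 nt in whole cells mouse somas had 4126 RPM and rat somas 303, so that rat somas stood above mouse dendrites. Introns 8 and 11 gave most of these mouse soma reads and also held contigs longer than the limit. Gad2 ranked 59 of 5895 genes in mouse somas and 1576 of 8607 in mouse dendrites, against 7448 of 10220 in BAT cells and 5587 of 6205 in cardiomyocytes. Gad2 thus lay in the lower part of both non-neuronal lists, and Gad1 was in neither.

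The Gad2 reads of mouse somas lay in intron 11 (3022 reads, 69.9%), intron 8 (627), intron 13 (366), intron 10 (294) and intron 15 (13). Those of mouse dendrites lay in intron 13 (346 reads, 74.9%), intron 6 (102), intron 11 (12) and intron 8 (2). Introns 8, 11 and 13 were listed in both compartments, while intron 6 was listed only in dendrites and introns 10 and 15 only in somas. The intron with most reads thus differed between the compartments, intron 11 with 1629 RPM in somas and 3.89 in dendrites. Intron 13 had 197 RPM in somas and 112 in dendrites. In BAT cells intron 8 had 14 reads and intron 9 had 11, and in cardiomyocytes intron 8 had 2.

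Several Gad2 contigs reached the edge of an exon. In intron 11 the dendrite and the soma contig began at the same base, chr2:22525286, which is the first base of the intron, and shared the 147 bases printed above. These bases begin with GT and end in a run of 16 A. The soma contig in intron 13 also began at the first base of its intron and was 1253 nt long, whereas the dendrite contig of 528 nt in that intron began 1840 nt into it and did not overlap the soma contig. The soma contigs in introns 10 and 15 ended 1 nt before the downstream exon, and the soma contigs of Gad1 in introns 7 and 11 began at the first base of their introns. Of the 21 contigs of the 6 genes in mouse somas, 6 lay within 1 nt of an exon, or 28.6%, beside 13.3% of all matched soma contigs. In dendrites these were 3 of 28, or 10.7%, beside 8.28%. In BAT cells and cardiomyocytes none of the 23 and 4 contigs did, beside 27.9% and 31.9% of all contigs of these lists.

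**Figure D2:**
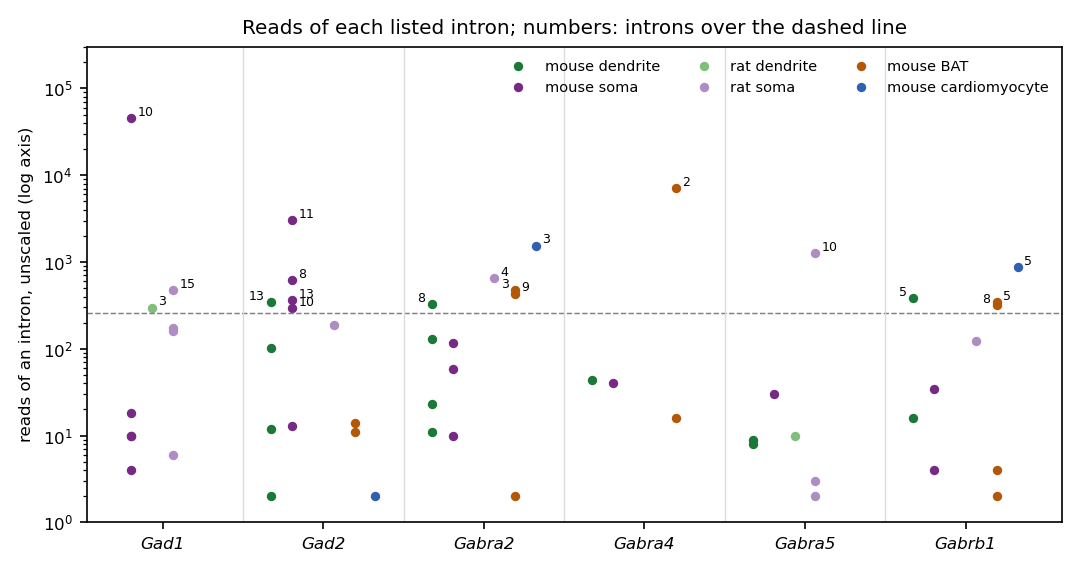
Unscaled reads of every listed intron (log axis) of the 6 genes, coloured by list, with the intron number beside introns of more than 255 reads and a dashed line at that limit. Intron 10 of Gad1 in mouse somas had 45674 reads and intron 2 of Gabra4 in BAT cells had 7175, and the next was intron 11 of Gad2 with 3022.

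Of 12 marker genes of inhibitory neurons, the cells that use GAD, 7 were in at least 1 list. The marker counts below stand beside 47.3% of all mouse symbols in mouse somas and 69.0% in mouse dendrites. For the rat these shares were 59.4% in somas and 78.5% in dendrites. In mouse somas 3 of 12 such genes were listed, with 3357 RPM in all. Erbb4, a neuregulin receptor, gave 3097 of these, and Lhx6, a transcription factor of inhibitory neurons, gave 259 and was not listed in mouse dendrites. In mouse dendrites 3 of 12 were listed with 922 RPM, of which Erbb4 gave 881. In rat somas 5 of 12 were listed with 32.5 RPM, and in rat dendrites 1 of 12 with 1.99. Erbb4 was also among the leading genes of cardiomyocytes, with 4889 RPM, and had 706 in BAT cells. Pvalb, Vip, Dlx2, Dlx5 and Dlx6 were listed nowhere. Excitatory neuron genes were listed in 3 of 8 cases in mouse somas, with 261 RPM, and in 5 of 8 in mouse dendrites, with 422. In rat somas 1 of 8 was listed, with 165 RPM, and in rat dendrites none of the 8. Glial genes took 195 RPM in mouse somas, 77.4 in mouse dendrites, 149 in rat somas and 206 in rat dendrites. The part of the kind of neuron picked in the Gad1 and Gad2 values was not tested.

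The alpha subunit gene Gabra2 was in every list except that of rat dendrites. It had 651 reads in rat somas, 489 in mouse dendrites, 1548 in cardiomyocytes, 186 in mouse somas and 908 in BAT cells. The scaled levels were 311 (287 to 336), 158 (145 to 173), 127 (121 to 133), 100 (86.4 to 116) and 50.8 (47.6 to 54.3) RPM. No 2 neighbours in this order had overlapping intervals, though counting error is only a part of the spread between libraries. The cardiomyocyte level lay within the range of the neuronal lists that held the gene, and the BAT level lay below it. The cardiomyocyte and rat soma levels each rest on 1 contig of more than 400 nt and are lost with that limit, which leaves 210 RPM in mouse somas, 158 in mouse dendrites (265 with the limit there too) and 118 in BAT cells.

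In the mouse, Gabra2 reads came mainly from introns 3, 8 and 9, which are 57174, 32479 and 11326 nt long. Intron 8 had 325 reads in dendrites and 117 in somas and was not listed in the non-neuronal cells. Intron 3 had 130 reads in dendrites, 59 in somas, 473 in BAT cells and 1548 in cardiomyocytes, and was listed in all 4. Within this long intron the contigs mostly lay apart, with 6 in dendrites, 5 in BAT cells, 2 in somas and 1 in cardiomyocytes. A dendrite contig of 525 nt and a BAT contig of 187 nt shared the 187 bases printed above. They differed by 1 nt at the downstream end and by 337 nt at the upstream end. A dendrite and a soma contig shared 174 bases and differed by 1 nt at the downstream end and by 27 nt at the upstream end. The cardiomyocyte contig of 826 nt, at chr5:71446539-71447364, overlapped none of the others. Intron 9 had 433 reads in BAT cells, 23 in dendrites and 10 in somas, and only the dendrite and soma contigs overlapped, over 188 bases. In rat somas the 651 reads lay in intron 4 on a contig of 933 nt.

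Gabra4, an alpha subunit gene next to Gabra2 on chromosome 5, was highest in BAT cells, where all its contigs were longer than 400 nt. It had 7191 reads there, 44 in mouse dendrites and 40 in mouse somas, or 403 (393 to 412), 14.3 (10.4 to 19.1) and 21.6 (15.4 to 29.4) RPM. The dendrite and soma intervals overlapped, and the BAT level lay above both. With the limit of 400 nt in whole cells Gabra4 was listed in mouse dendrites alone, so the BAT value rests on longer contigs. Intron 2 gave 7175 of the BAT reads, or 99.8%, on a contig of 921 nt, and ranked 533 of 30018 introns. That contig had 823 other places in the genome at 90% identity over 100 nt or more. The soma contig in the same intron, of 732 nt, did not overlap it and had no other place. Intron 7 had 44 reads in dendrites and 16 in BAT cells, again on contigs that did not overlap. The longest intron of Gabra4, intron 8 of 51631 nt, was not listed in any mouse list.

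Gabra5, an alpha subunit gene known for its expression in the hippocampus, had 1279 reads in rat somas, 30 in mouse somas, 10 in rat dendrites and 17 in mouse dendrites. The scaled levels were 611 (578 to 645), 16.2 (10.9 to 23.1), 9.93 (4.76 to 18.3) and 5.51 (3.21 to 8.82) RPM. The intervals of rat dendrites overlapped those of mouse somas and of mouse dendrites, and rat somas lay above all of them. With the limit of 400 nt in whole cells rat somas kept 5 reads, or 8.06 RPM, and mouse somas had 33.8 RPM. It was not listed in BAT cells or cardiomyocytes, so all its contigs came from the neuronal lists. Intron 10 gave 1274 of the rat soma reads, or 99.6%, on a contig of 1367 nt at rn4 chr1:108852310-108853676. Intron 9 was the 1 intron of the 6 genes listed in both rat lists, with 10 reads in dendrites and 2 in somas on contigs that shared 188 bases. In the mouse, intron 2 was listed in both compartments, with 8 reads on 2 dendrite contigs and 30 on a soma contig, without overlap.

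Gabrb1, the beta subunit gene, had 400 reads in mouse dendrites, 871 in cardiomyocytes, 122 in rat somas, 676 in BAT cells and 38 in mouse somas. The scaled levels were 130 (117 to 143), 71.4 (66.7 to 76.3), 58.2 (48.4 to 69.5), 37.9 (35.1 to 40.8) and 20.5 (14.5 to 28.1) RPM. The intervals of cardiomyocytes and rat somas overlapped, and the other neighbours did not. Dendrites were thus the highest of the mouse lists and somas the lowest. With the limit of 400 nt in whole cells cardiomyocytes had 187 RPM, which is above the 130 of dendrites without the limit and below their 228 with it, BAT cells had 87.9, mouse somas 42.8, and rat somas did not list the gene. Intron 5, of 78398 nt, held 384 of the dendrite reads, 34 of the soma reads, 348 of the BAT reads and all 871 of the cardiomyocyte reads. Of the dendrite contigs 7 lay in this intron, against 6 in BAT cells, 2 in cardiomyocytes and 1 in somas. Intron 1, of 193 nt, had 4 reads in somas, and intron 2, of 424 nt, had 2 reads in BAT cells. The longest intron, intron 3 of 168526 nt, was not listed.

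The stretch of intron 5 that was common to all 4 mouse lists resembled the messenger of another gene. The contigs were 243 nt long in somas, 502 in dendrites, 1159 in BAT cells and 1292 in cardiomyocytes, and all 4 contained the 243 bases printed above. They matched the mRNA of Rpl5, a protein of the large ribosomal subunit, at 94.7% identity over 243 nt, 95.7% over 489 nt, 95.7% over 838 nt and 95.4% over 998 nt. The matches ended at or near base 1090 of the Rpl5 mRNA, whose coding part ends at base 1036. The BAT and cardiomyocyte contigs overlapped the exon of Gm15616, annotated as a transcribed processed pseudogene on the plus strand at chr5:72438444-72438818. Between 9 and 14 other places in the genome matched these 4 contigs. In somas this contig was the only 1 of the intron, so all 34 reads of intron 5 belonged to it, and 4 of the 38 Gabrb1 reads lay elsewhere. In the other lists the reads are given per intron and the share of this stretch was not analysed here.

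**Figure D3:**
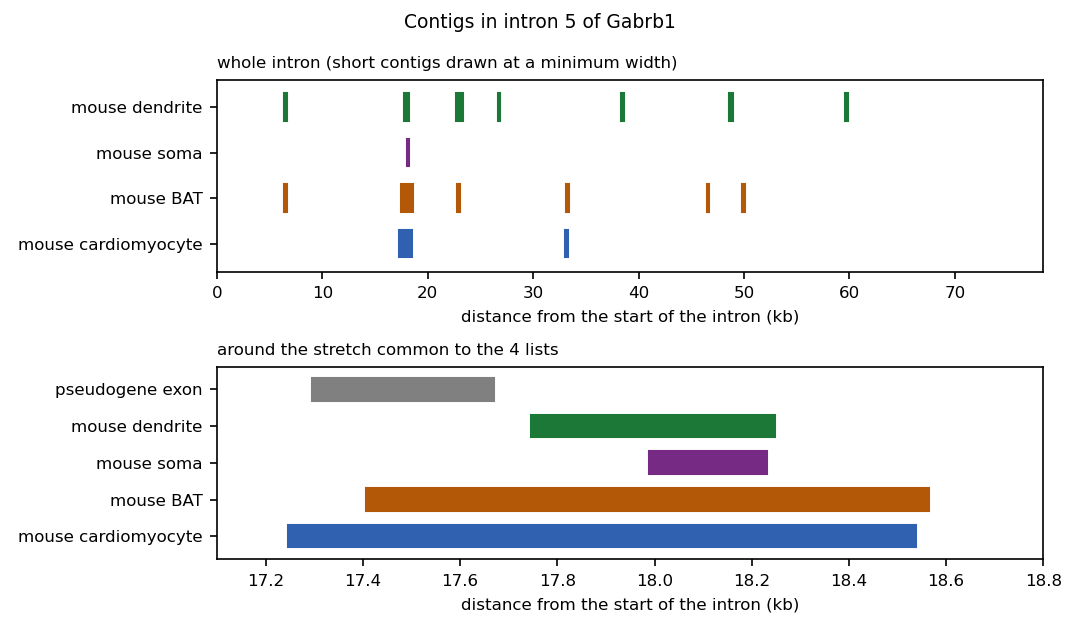
Contigs in intron 5 of Gabrb1 in the 4 mouse lists by distance from the start of the intron (kb), over the whole intron (top) and around the common stretch (bottom), where the grey bar is the exon of the annotated pseudogene. The dendrite list had 7 contigs along the intron, and the 4 contigs in the bottom panel share 243 bases.

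Dendrites and somas were compared in the species where a gene was listed in both. Of all symbols in either list, 48.5% were in both mouse lists and 37.9% in both rat lists, as were 5 of the 6 genes in either mouse list and 2 of the 5 in either rat list. Among the 4739 mouse symbols in both lists the median ratio of dendrite to soma, in RPM, was 1.20. At least 2-fold higher in dendrites were 42.7% of them and at least 2-fold lower 35.5%, beside 1 and 2 of the 5 genes. The ratio was 6.33 (interval 4.53 to 9.07) for Gabrb1, 1.58 (1.33 to 1.88) for Gabra2, 0.661 (0.421 to 1.04) for Gabra4, 0.341 (0.176 to 0.638) for Gabra5 and 0.0643 (0.0583 to 0.0707) for Gad2. Gad2 was thus 15.6-fold higher in somas. The Gabra4 interval included 1. With soma contigs limited to 400 nt the ratios were 3.03 for Gabrb1, 0.756 for Gabra2, 0.163 for Gabra5 and 0.0363 for Gad2. With the limit in both lists they were 5.32, 1.27, 0.286 and 0.0160, so the Gabra2 direction turned only with the limit on somas alone. The Gabra4 ratio became 1.10 on unscaled reads. Of the 38 Gabrb1 soma reads behind its ratio, 34 belonged to the stretch that resembles Rpl5.

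In the rat the ratio of dendrite to soma was 0.766 (0.669 to 0.876) for Gad1 and 0.0163 (0.00778 to 0.0300) for Gabra5. Over the 2166 rat symbols in both lists the median was 1.66, with 47.1% at least 2-fold higher in dendrites and 32.3% at least 2-fold lower, beside 0 and 1 of the 2 genes. Gabra5 was 61.5-fold higher in rat somas. With soma contigs of at most 400 nt both ratios turned, to 30.7 for Gad1 and 1.23 for Gabra5, since most of their soma reads lay in introns with long contigs only. The rat dendrite contigs of both genes were longer than 400 nt too, so with the limit in both lists no ratio can be given. Gad2, Gabra2 and Gabrb1 had 188, 651 and 122 reads in rat somas and were not listed in rat dendrites. Of these, Gabra2 and Gabrb1 were lost from rat somas as well with the limit of 400 nt. A dendrite library pools many cells, in which fewer cells that express a gene and less of its RNA per cell cannot be told apart.

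Introns with more than 255 reads were taken as highly covered. In mouse dendrites 23.5% of listed genes had such an intron and 3 of the 5 genes did, and in mouse somas 18.7% and 2 of 6. The shares were 15.8% and 1 of 2 in rat dendrites, 30.4% and 3 of 5 in rat somas, 40.2% and 3 of 4 in BAT cells, and 42.9% and 2 of 3 in cardiomyocytes. Each of the 6 genes had such an intron in at least 1 list, beside 49.5% of all genes. In mouse dendrites they were intron 13 of Gad2, intron 8 of Gabra2 and intron 5 of Gabrb1, and in mouse somas introns 8, 10, 11 and 13 of Gad2 and intron 10 of Gad1.

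BAT cells and cardiomyocytes were set beside mouse somas in the same way. The ratio of BAT cells to somas was 18.7 (13.7 to 26.2) for Gabra4, 1.85 (1.33 to 2.63) for Gabrb1, 0.507 (0.433 to 0.597) for Gabra2 and 0.000601 (0.000388 to 0.000888) for Gad2. Of 5076 symbols in both lists 35.6% were at least 2-fold higher in BAT cells and 43.3% at least 2-fold lower, beside 1 and 1 of the 4 genes, and the median ratio was 0.771. With the limit of 400 nt the ratios were 2.05 for Gabrb1, 0.563 for Gabra2 and 0.000788 for Gad2, and that of Gabra4 was lost, since all its contigs in both lists were longer. The ratio of cardiomyocytes to somas was 3.49 (2.52 to 4.96) for Gabrb1, 1.27 (1.09 to 1.48) for Gabra2 and 0.0000704 (0.00000852 to 0.000254) for Gad2. Of 3700 symbols in both lists 35.3% were at least 2-fold higher in cardiomyocytes and 45.0% at least 2-fold lower, beside 1 and 1 of the 3 genes, with a median of 0.706. With the limit these were 4.36 for Gabrb1 and 0.000104 for Gad2, and Gabra2 was lost. Of the 3 genes in all 4 mouse lists, Gad2 thus had the widest range of levels, and Gabra2 and Gabrb1 spanned less than 10-fold.

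The contigs were small parts of the genes. Over the mouse lists 26 of the 65 introns of the 6 genes were listed at least once. In mouse dendrites 13 of the 49 introns of the listed genes were listed, or 26.5%, beside 15.8% over all matched transcripts, and in somas 17 of 65, or 26.2%, beside 11.9%. BAT cells had 11 of 40, or 27.5%, beside 21.7%, and cardiomyocytes 3 of 32, or 9.38%, beside 14.6%. Listed introns of these genes were long, with a median of 11326 nt in dendrites beside 3911 nt over all listed introns, and 4178 nt in somas beside 3802. In Gad2, Gabra2, Gabra4 and Gabra5 the listed introns had a longer median length than the introns that were not listed, and in Gad1 and Gabrb1 a shorter one.

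**Figure D4:**
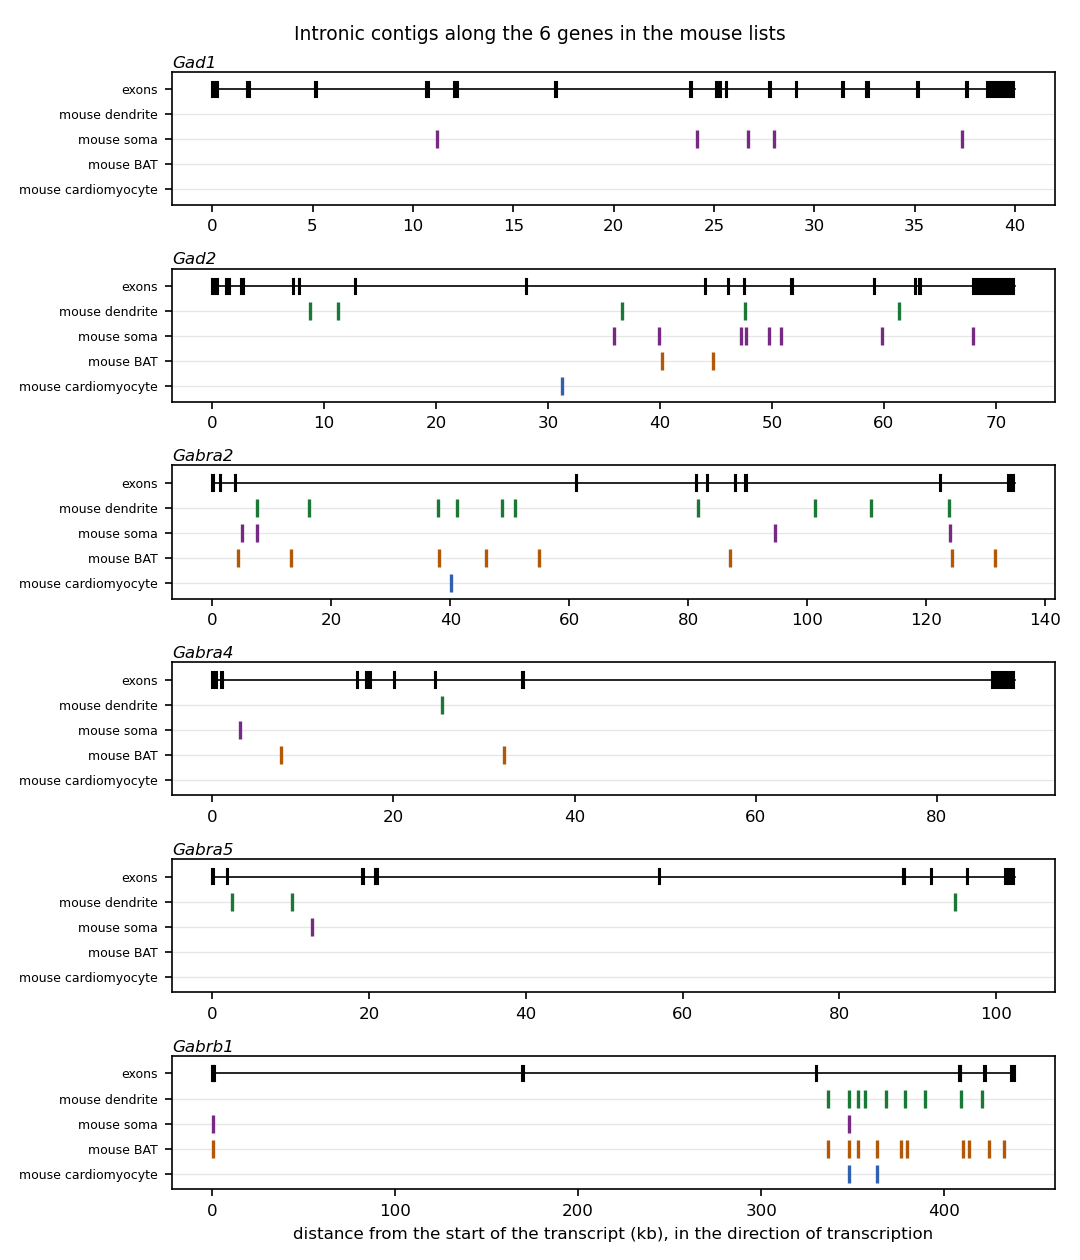
Positions of the contigs of the 6 genes in the 4 mouse lists, by distance from the start of the transcript (kb) in the direction of transcription, with exons in black and a tick at the centre of each contig, drawn wider than the contig is. Gad1 had contigs in somas alone, and those of Gabrb1 lay in the first introns or behind the 2 longest introns.

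Of the 26 mouse introns 15 were in 1 list, 7 in 2, 1 in 3 and 3 in all 4, where 60.5%, 25.7%, 10.1% and 3.70% of all 46599 introns in any mouse list were. The 3 were intron 8 of Gad2, intron 3 of Gabra2 and intron 5 of Gabrb1, which are 15926, 57174 and 78398 nt long. Of the 8 introns listed in both mouse dendrites and mouse somas, 4 had contigs that overlapped by at least 1 base, or 50.0%, beside 58.0% of 5049 such introns over all genes. Between dendrites and BAT cells 2 of 6 introns did, or 33.3%, beside 44.0%, and between BAT cells and cardiomyocytes 1 of 3, or 33.3%, beside 65.3%. In the rat 1 of 1 did, beside 66.5%. The intron of Gad2 listed in all 4 mouse lists had overlapping contigs in somas and BAT cells only, over 168 bases that matched 27244 other places in the genome.

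The contigs were also searched for other places of their sequence in the genome. With a match of 90% identity over 100 nt or more, 24 of 28 dendrite contigs of the 6 genes had no other place in the genome, or 85.7%, and 15 of 19 soma contigs, or 78.9%. In BAT cells it was 14 of 23, or 60.9%, and in cardiomyocytes 2 of 4. The same shares over all contigs of the lists were not analysed here, so no difference between lists is read from them. The contig with the most other places, 57956, lay in intron 8 of Gabrb1 in BAT cells. The authors counted uniquely mapped reads only, and contigs may bridge stretches without reads. Contigs of the 6 genes had a median length of 343 nt in mouse somas, beside 277 nt over all contigs of that list, and of 242 nt in mouse dendrites. Of the 28 dendrite contigs 9 were longer than 400 nt, or 32.1%, beside 27.5% of all contigs of that list, and of the 21 soma contigs 9 were, or 42.9%, beside 32.7%.

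Of 35 other genes of GABA signalling, 29 were in at least 1 list. Of the 26 in any mouse list, 23 were in mouse dendrites, or 88.5%, beside 69.0% of all mouse symbols, and 18 in mouse somas, or 69.2%, beside 47.3%. BAT cells had 23, or 88.5%, beside 82.0%, and cardiomyocytes 11, or 42.3%, beside 49.8%. Of the 15 in either rat list, 10 were in dendrites, or 66.7%, beside 78.5%, and 6 in somas, or 40.0%, beside 59.4%. Among other GABA-A receptor subunits 8 of 13 were listed in mouse dendrites and 6 in mouse somas, with 981 and 3396 RPM in all. The beta subunit gene Gabrb2 led with 3112 RPM in mouse somas, 599 in mouse dendrites and 464 in BAT cells, and was not listed in the rat. The gamma subunit gene Gabrg3 had 147 RPM in mouse somas and 26.2 in mouse dendrites. Gabra3 had 75.7 in BAT cells and 65.1 in mouse dendrites, and Gabrr3, a rho subunit gene, 135 in mouse dendrites and 147 in rat dendrites. Cardiomyocytes listed 3 of the 13 with 1.48 RPM in all.

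Genes outside the GABA-A receptor gave other patterns. Gabbr1, a subunit of the GABA-B receptor, had 1272 RPM in BAT cells, all 22717 reads in intron 11, against 77.6 in mouse somas and 22.0 in mouse dendrites. Kctd8, an auxiliary subunit, had 352 in cardiomyocytes, 178 in BAT cells, 142 in mouse somas and 139 in mouse dendrites, each in intron 1. Of 4 GABA transporter genes 2 were listed anywhere, with no more than 37.3 RPM in a list, and Slc32a1, the vesicular transporter of inhibitory neurons, was not listed. Abat, the enzyme that breaks down GABA, had 403 RPM in BAT cells, against 3.24 in mouse dendrites and 9.16 in mouse somas. Gphn, the scaffold of inhibitory synapses, had 1097 in rat somas, 215 in BAT cells, 97.2 in mouse dendrites, 88.4 in mouse somas and 39.5 in cardiomyocytes. Of the chloride cotransporters, Slc12a2 had 1098 in cardiomyocytes and 689 in rat dendrites, and Slc12a5 had 319 in rat somas.

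**Figure D5:**
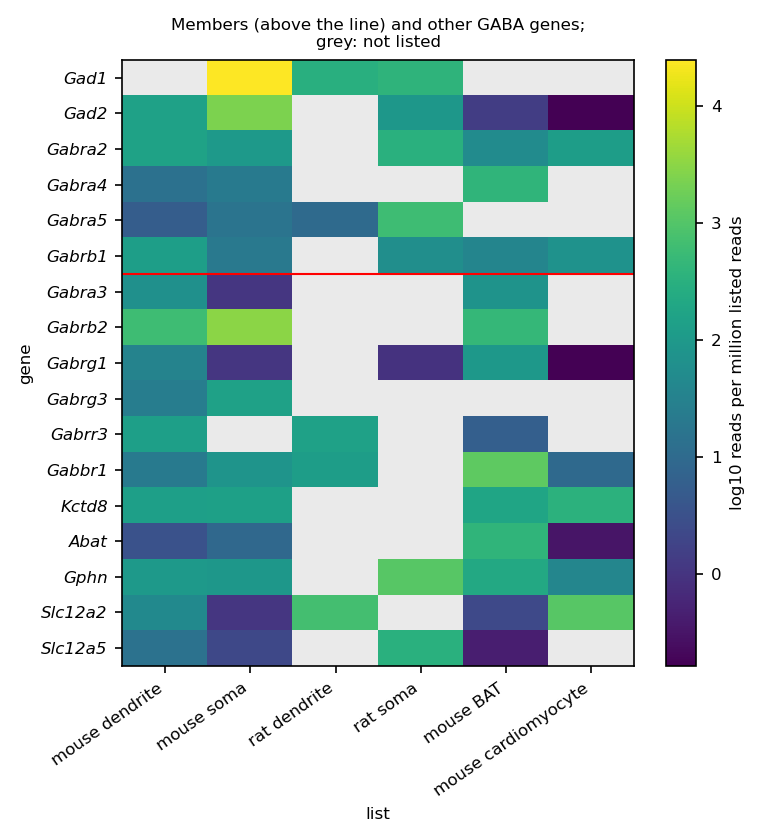
Heat map of log10 RPM for the 6 genes (above the red line) and the other GABA genes counted here with an intron of more than 255 reads in any list, with grey for genes that were not listed. Gad1 in mouse somas has the highest value, and the rat dendrite column has the most grey cells.

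Several receptor genes lie in a cluster on chromosome 5, and neighbours in it had different levels. The order is Gabrg1, Gabra2, Gabra4 and Gabrb1. In BAT cells these had 92.9, 50.8, 403 and 37.9 RPM, in mouse dendrites 33.7, 158, 14.3 and 130, and in mouse somas 1.08, 100, 21.6 and 20.5. Cardiomyocytes had 0.164 RPM of Gabrg1, 127 of Gabra2 and 71.4 of Gabrb1, and did not list Gabra4. With all contigs the highest gene of the cluster was thus Gabra4 in BAT cells and Gabra2 in the other 3 mouse lists. With the limit of 400 nt in whole cells Gabra4 was not listed in BAT cells, where Gabra2 had 118 RPM and Gabrb1 87.9. Gabra2 was then not listed in cardiomyocytes, where Gabrb1 had 187. The level of Gabrg1 with this limit is not given here.

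Genes with the most similar profile were sought among 13694 other symbols by the Euclidean distance of log10(RPM + 1) over the 6 lists. A gene that was not listed entered with 0 RPM, so a list that held neither gene added nothing to the distance. For Gad1 the nearest were the protocadherin gene Pcdh17 at 1.30, Khsrp at 1.33 and Syngr3 at 1.85. For Gad2 they were the kinase gene Dclk2 at 0.881, Ppp3cc at 1.11 and Abca5 at 1.21. For Gabra2 they were Khdrbs3 at 0.650, Akt2 at 0.783 and Ptpn4 at 0.797, and for Gabra5 they were Sh3yl1 at 0.600, Polr2h at 0.848 and the potassium channel gene Kcnc1 at 0.903. Gabra4 had the closest ones, Ak5 at 0.271, Ptk7 at 0.296 and Ssh1 at 0.374, and Gabrb1 had Pitrm1 at 0.302, Supt16h at 0.455 and Aifm1 at 0.674. None of these 18 genes was in another neighbour set of the 6 genes.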

How the data were processed

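Genes and gene lists were chosen with earlier results of these data known. Paired-end reads had been aligned by the authors to mm9 and rn4 with RUM. The authors kept uniquely mapped intronic reads, left out introns with predicted genes or annotated poly(A) sites, and joined nearby reads into contigs; in the lists no contigs of an intron lie closer than 501 nt. The deposited counts are raw read counts per intron, repeated on each contig, with the libraries of a condition pooled. The libraries were not strand specific, so antisense reads cannot be told apart.

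Here counts were taken once per transcript and intron with Python 3.11.15 and pandas 2.3.3, joined by symbol, and scaled to reads per 1000000 reads of the list (RPM), with no filter on length or reads. Start positions were shifted by 1. Ratio intervals are exact binomial at 95%. Mouse introns were matched to GENCODE vM1 on NCBIM37 (97.1% of listed transcripts). Contigs were searched with BLAST 2.17.0 against the genome and annotated mRNAs. Aggregation was tested on simulated lists. With 1 pooled list per condition no test was made. The genes named were the 6 members, other GABA genes with an intron of more than 255 reads in any list, up to 3 leading markers per list and the 3 genes nearest in profile. Further genes named as not listed were chosen after their values were seen. Alternatives limited contig length, raised the read minimum, counted shared contigs once, or changed the scaling. Some genes of the lists are not reported here and were left out of the counts.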

Additional observations from a re-analysis of the deposited data

How the results depend on the processing

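No paired analysis was possible because each condition is 1 pooled list with no column per library, and for the same reason no replicate could be left out. With contigs of at most 400 nt in somas, BAT cells and cardiomyocytes, where an intron with any such contig keeps all its reads, the 6 genes had 4437 RPM in mouse somas (27127 with all contigs), 321 in rat somas (1457), 209 in BAT cells (493) and 187 in cardiomyocytes (198), with 11 introns of 5 genes in mouse somas and 4 introns of 3 genes in rat somas, and with 3 genes in BAT cells and 2 in cardiomyocytes. The dendrite to soma ratio of the 6 genes together moved from 0.0169 to 0.103 in the mouse and from 0.211 to 0.956 in the rat. Single ratios turned for Gabra2 in the mouse (0.756), and for Gad1 (30.7) and Gabra5 (1.23) in the rat. With the limit in all lists, mouse dendrites had 594 RPM (457), the mouse ratio was 0.134, and rat dendrites kept 0 genes, 0 introns and 0 reads. Introns with at least 32 reads numbered 6 in mouse dendrites (13), 9 in mouse somas (17), 5 in BAT cells (11) and 1 of 1 gene in rat dendrites, and mouse somas then had 27826 RPM. With the 10 most-read introns left out of the totals but not of the genes' reads, intron 10 of Gad1 among them, the values were 29831 in mouse somas, 369 in rat dendrites, 1672 in rat somas, 517 in BAT cells and 215 in cardiomyocytes. On unscaled reads the ratios were 0.0281 in the mouse and 0.101 in the rat, and that of Gabra4 was 1.10. Without intron 10 of Gad1, an alternative chosen after seeing the data, mouse somas had 2574 RPM and the mouse ratio was 0.178. With at least 4 reads the introns numbered 12 in mouse dendrites, 8 in rat somas (10), 9 in BAT cells and 2 in cardiomyocytes (3), where Gad2 was lost. The effect of depth was not compared between genes, and genes with fewer than 50 reads, such as Gabra5 in the mouse, rest on small counts.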

Other observations

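The oligo(dT) primer of the amplification can bind runs of A, so tracts of 10 or more A were counted in the contigs and the 300 nt on either side. Of the 76 mouse contigs of the 6 genes 20 had such a tract, or 26.3%, beside 21.5% of 97721 contigs of all genes. The share was 38.1% of 21 contigs in mouse somas, beside 31.6%, and 14.3% of 28 in mouse dendrites, beside 19.6%. Tracts of T, which are A on the other strand, were in or near 14.5% of the contigs, beside 23.1%. Inside the contig itself 4 of the 21 soma contigs had a tract, or 19.0%, beside 12.0%. Among them were the 1 contig in intron 10 of Gad1 and 2 of the 3 contigs in intron 11 of Gad2. Of the 6 genes' introns these had most reads in mouse somas, and intron 11 ranked 82 of 10568 in that list. The Gad2 contig at the exon edge holds a run of 16 A. In mouse dendrites the most-read intron of the 6 genes, intron 5 of Gabrb1, had tracts inside some contigs. In BAT cells and cardiomyocytes the most-read ones, intron 2 of Gabra4 and intron 3 of Gabra2, had none inside.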
